A study of Homo sapiens with 20 samples.

Results

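Long noncoding RNAs are transcripts that are processed by the RNA machinery of the cell but are not read into protein. The 8 examined here, taken from the count tables by gene symbol out of 25411 genes in all, were MALAT1, NEAT1, GAS5, SNHG1, SNHG5, SNHG8, SNHG12 and MIR210HG. They were measured by RNA sequencing in BEAS-2B cells, a transformed line that derives from the epithelium of a human bronchus, with and without nickel chloride. In the labels the short exposure gave Ni_3D+14D (n = 2), cells of a 3-day exposure sampled 14 days later, Ni_3D (n = 2), cells at 3 days of nickel, and Control_3D (n = 4), their unexposed controls. The long exposure gave Ni_clone (n = 6), Ni_6W+2W (n = 2), Ni_6W (n = 2) and Control_6W (n = 2). Ni_6W were cells at 6 weeks of nickel, Ni_6W+2W were cells washed and kept without nickel for 2 weeks afterwards, and Control_6W were unexposed. Each Ni_clone library was 1 colony, picked from plates of cells exposed for 6 weeks to nickel chloride and expanded without nickel. The concentration is not printed here, because the unit in the labels could not be checked, and the sources used here do not give the number of cultures behind a group. The p-values therefore measure the spread between libraries, which may be technical, and neither the picking of colonies nor longer culture can be told apart from earlier nickel.

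Totals ran from 8609243 reads (Control_3D replicate 4) to 88848786 reads (Ni_3D replicate 2), and every member had at least 48 reads in every library. The simple-epithelium keratins KRT8 and KRT18 were present in all libraries (lowest level 187 and 135 CPM). KRT7 and KRT17 had medians of 469 and 125 CPM. Other listed epithelial markers were low, with medians of 2.36 CPM for EPCAM, 1.52 CPM for KRT19 and 0.474 CPM for CDH1. KRT14 had a median of 0.0193 CPM, and the airway basal markers KRT5 and TP63 of 0.0 CPM. Of the mesenchymal markers COL1A1 (2852 CPM), VIM (2366 CPM), FN1 (675 CPM) and CDH2 (205 CPM) had high medians. COL1A2 (12.4 CPM) and COL3A1 (0.0885 CPM) had low ones, so both lists were mixed. The 4 endothelial markers summed to at most 3.37 CPM in any library, and the 5 leukocyte markers to 33.0 to 117 CPM, carried by CD14 and CD68, while PTPRC had a median of 0.0163 CPM and CD3E of 0.0 CPM. Replicate 1 of Ni_3D and replicate 1 of Control_3D stood apart. The summed level of 9 oestrogen-responsive genes, ESR1 and TFF1 among them, was 188 and 101 CPM in those libraries and at most 5.48 CPM in the other libraries, so the called changes of members and listed genes in Ni_3D are also given without them. The part of these transcripts in the results below was not tested.

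MALAT1 and NEAT1 are abundant RNAs kept in the nucleus. MALAT1 lies in nuclear speckles, bodies rich in splicing factors, and NEAT1 is the scaffold of paraspeckles, bodies that hold RNA-binding proteins. GAS5 and the SNHG genes are snoRNA hosts: their introns carry small nucleolar RNAs, which guide chemical modification of ribosomal RNA, while many of their spliced transcripts are degraded in the cytoplasm by nonsense-mediated decay. MIR210HG is the host of miR-210, the microRNA known best for its rise under low oxygen through the hypoxia-inducible factors (HIF).

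In the coordinates of the count tables (hg19) MALAT1 was at chr11:65265233-65273939 and NEAT1 at chr11:65190269-65194003, both on the plus strand and 71229 bases apart. The NEAT1 row spans 3735 bases, the short isoform, so reads beyond that end were not in it. MIR210HG was at chr11:565657-568457 and SNHG1 at chr11:62619460-62623360, both on the minus strand. GAS5 (chr1:173833039-173837125) and SNHG12 (chr1:28905050-28908366) were on the minus strand of chromosome 1. SNHG5 was at chr6:86386725-86388451 on the minus strand, and SNHG8 at chr4:119199917-119200978 on the plus strand. GAS5 overlaps GAS5-AS1 and SNHG12 overlaps TRNAU1AP on the opposite strand, and the sources used here do not state the strand used in counting, so reads of the overlapping ends cannot be told apart. GAS5-AS1 was low, at most 0.737 CPM in any library. TRNAU1AP lay between 15.5 and 32.8 CPM, a range that overlaps that of SNHG12, and was called in none of the comparisons.

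Per kilobase the members covered a wide range of levels. In the authors' RPKM, NEAT1 had the highest median over the 20 libraries, 159 RPKM, followed by SNHG1 (54.3 RPKM), GAS5 (45.7 RPKM) and MALAT1 (30.7 RPKM). SNHG12 (16.1 RPKM), SNHG5 (14.4 RPKM), SNHG8 (10.2 RPKM) and MIR210HG (4.44 RPKM) were lower. The widest range between libraries belonged to MIR210HG, whose highest level in CPM (counts scaled to library totals with TMM factors) was 29.3 times its lowest. NEAT1 followed with 15.8 times, and the narrowest ranges were those of SNHG5 (3.01 times) and SNHG1 (2.97 times).

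**Figure D1:**
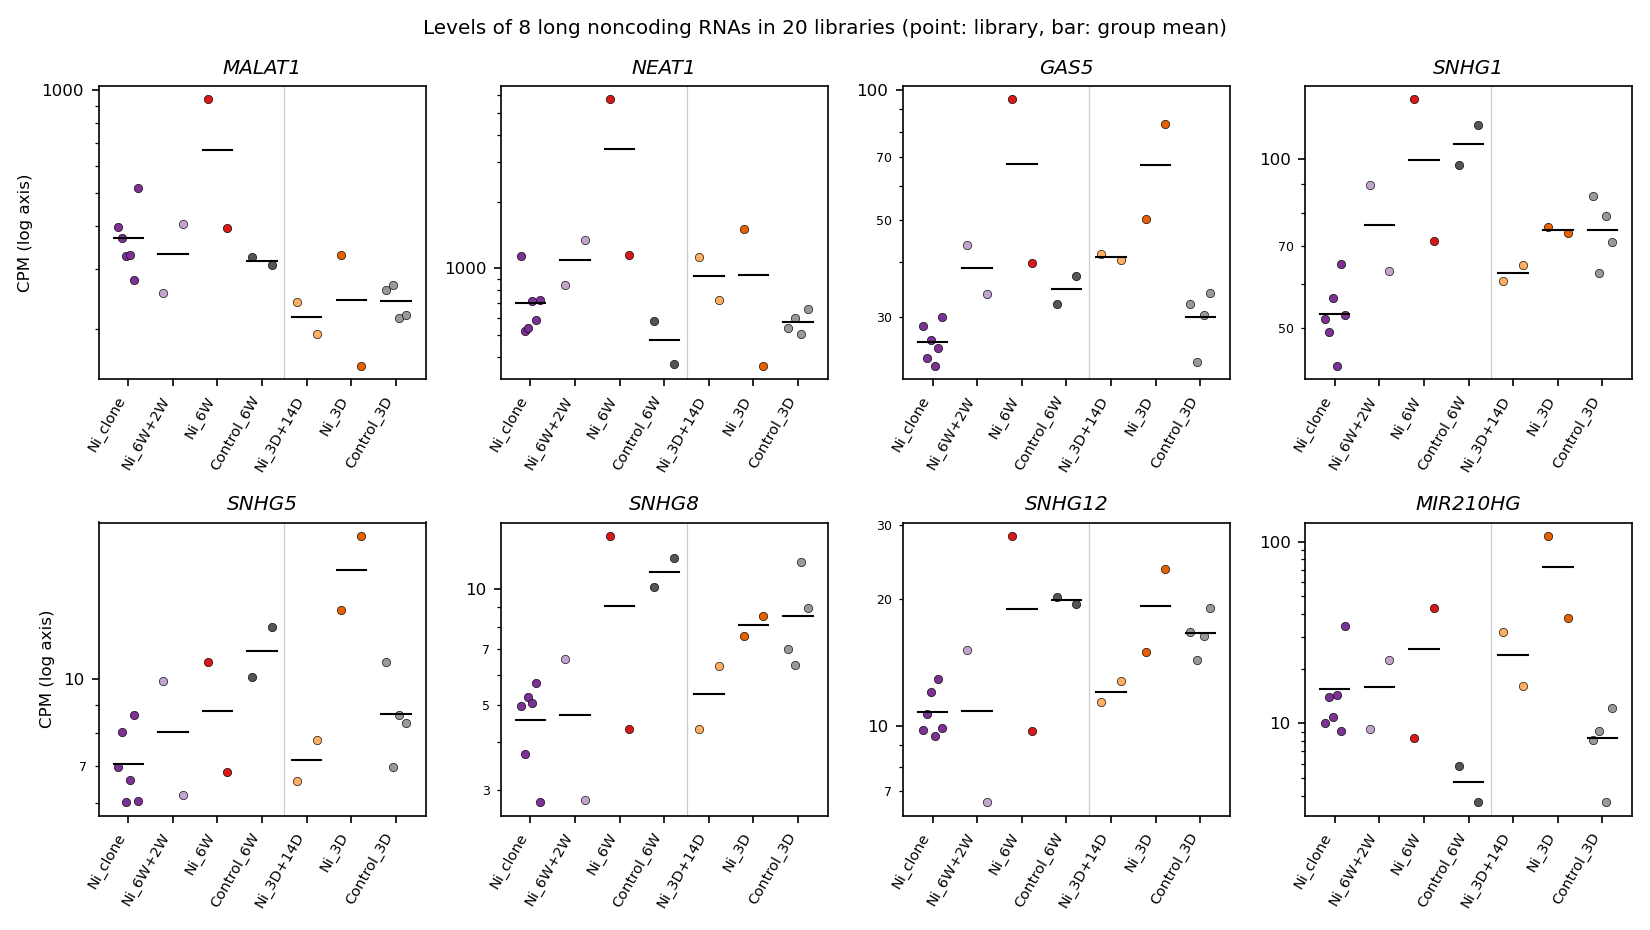
Level of each of the 8 RNAs in CPM (vertical log axis, a separate range in each panel) in the 20 libraries, by group; a point is a library and a bar the group mean. MIR210HG was highest in both Ni_3D libraries apart from Ni_6W replicate 2, NEAT1 and MALAT1 were highest in Ni_6W replicate 1, and the 6 Ni_clone libraries lay below both Control_6W libraries for SNHG1, SNHG5, SNHG8 and SNHG12, as they did for 12.1% of all genes tested.

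Against the control groups, 5 changes among the members passed the test (edgeR's quasi-likelihood test, Benjamini-Hochberg adjusted p under 0.05 over all genes tested). In Ni_3D against Control_3D 2 of 8 members were called, both up, where 4.33% of all 14927 genes tested were called and 2.83% were called up. In Ni_clone against Control_6W 3 of 8 members were called, all down, where 5.26% of 14172 genes were called and 2.38% were called down. These are counts of 8 hand-chosen genes and say nothing of long noncoding RNAs in general.

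No member was called by edgeR in the other comparisons. In Ni_6W against Control_6W 2.47% of all genes were called. Of the members 4 of 8 had an unadjusted p under 0.05 and DESeq2 called 2, where 26.6% of all genes had such a p. DESeq2, fitted without that filter on low counts, called 2098 genes, equal to 14.1% of the number edgeR tested. In Ni_3D+14D against Ni_3D 0.255% of genes were called, and 1 member had an unadjusted p under 0.05 and was also called by DESeq2, SNHG5. Of all genes 12.6% had such a p, and DESeq2 called 448, equal to 3.0% of the number edgeR tested. In Ni_clone against Ni_6W+2W 0.028% of genes were called, 2 members had an unadjusted p under 0.05 and DESeq2 called 0 members. Of all genes 6.61% had such a p, and DESeq2 called 64, equal to 0.448% of the number edgeR tested.

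In the remaining comparisons 0.0% of the genes were called by edgeR. For Ni_3D+14D against Control_3D 613 genes had an unadjusted p under 0.05 and DESeq2 called 16, and 1 member had such a p and 0 were called by DESeq2. For Ni_6W+2W against Control_6W these numbers were 1956 and 323 genes, and 1 and 0 members. For Ni_6W+2W against Ni_6W they were 983 and 7 genes, and 3 and 0 members. The 3 were MALAT1 (log2 fold change -1.015), NEAT1 (-1.67) and GAS5 (-0.80). Without Ni_6W replicate 1 their values were -0.24, -0.07 and -0.02 in that order. For Control_6W against Control_3D the numbers were 1240 and 48 genes, and 0 members by either count. In the order of these comparisons, 4.11%, 13.1%, 6.59% and 8.31% of all genes had an unadjusted p under 0.05. The difference between the long and the short response was 0.0% called as well. Taken in nickel (Ni_6W and Ni_3D, each against its control) 1630 genes (10.9% of all) and 2 members, NEAT1 and SNHG5, had an unadjusted p under 0.05, and DESeq2 called 197 genes and 0 members. Taken after nickel (Ni_6W+2W and Ni_3D+14D, each against its control) these were 290 genes and 0 members, and DESeq2 called 2 genes and 0 members. A missed threshold does not show that the groups were alike.

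**Figure D2:**
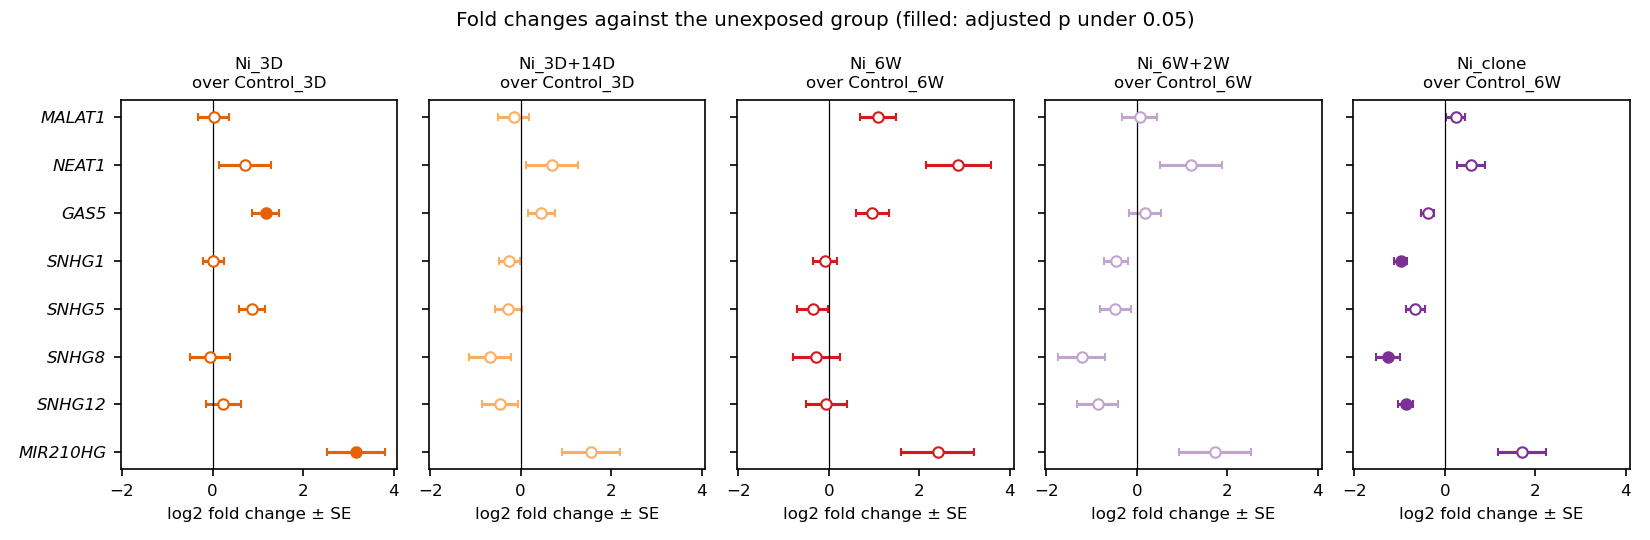
Log2 fold change of each RNA with its standard error (horizontal axis) in the 5 comparisons with unexposed cells; filled points passed an adjusted p of 0.05. Filled points are GAS5 (1.18) and MIR210HG (3.17) in Ni_3D over Control_3D, and SNHG1 (-0.98), SNHG8 (-1.25) and SNHG12 (-0.86) in Ni_clone over Control_6W; comparisons with the same control share those libraries.

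MIR210HG was raised at 3 days of nickel. It had 108 and 37.8 CPM in Ni_3D, against 8.10, 9.12, 3.67 and 12.1 CPM in Control_3D. The groups did not overlap, and 19.8% of all genes tested were higher in Ni_3D without overlap. The log2 fold change was 3.17 (SE 0.63, adjusted p = 0.0243), a fold of 9.02. Of the 2 exposed libraries the higher was the one with oestrogen-responsive transcripts. Without that library and replicate 1 of Control_3D the log2 fold change was 2.21 (SE 0.79, adjusted p = 0.187), with a single exposed library left and assumed to vary like the other groups. The call was also lost without Ni_3D replicate 1 alone (2.21, adjusted p = 0.153), without Control_3D replicate 2 (3.24, adjusted p = 0.0651) or without Control_3D replicate 3 (2.90, adjusted p = 0.0635), and with no filter on low counts (3.16, adjusted p = 0.0563).

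After nickel the difference from the 3-day level did not pass the test. Ni_3D+14D had 31.8 and 15.98 CPM, below both Ni_3D libraries and above all 4 Control_3D libraries, as were 26.9% and 11.2% of all genes, each counted alone. The log2 fold change of Ni_3D+14D was -1.62 against Ni_3D (SE 0.76, adjusted p = 0.409) and 1.56 against Control_3D (SE 0.63, adjusted p = 0.979). In the long exposure MIR210HG had 8.25 and 43.0 CPM in Ni_6W and 5.85 and 3.67 CPM in Control_6W, a log2 fold change of 2.41 (SE 0.81, adjusted p = 0.0978). The 2 Ni_6W libraries differed from each other by more than the lower of them differed from the controls, and without Ni_6W replicate 2 the log2 fold change was 0.77 (adjusted p = 0.512). Ni_6W+2W had 9.31 and 22.3 CPM. The clones lay between 9.10 and 34.3 CPM with a median of 12.4 CPM, all above both Control_6W libraries (as for 11.4% of all genes), with a log2 fold change of 1.70 (SE 0.54, adjusted p = 0.0898). This passed without clone 6, the highest of the clones (1.31, adjusted p = 0.0472), the only 1 of 8 leave-outs that did. The log2 fold change was 2.09 without Control_6W replicate 1 and 1.40 without Control_6W replicate 2, each with a lone control left. It did not pass with all 20 libraries in 1 fit (adjusted p = 0.185) or with the replicate number as a block (0.286). DESeq2 called it (adjusted p = 0.00606).

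The row of the miR-210 hairpin, which lies inside MIR210HG, had few reads. It had 257 and 154 reads in Ni_3D (5.11 and 1.82 CPM) and 20, 18, 7 and 3 reads in Control_3D (0.444, 0.882, 0.271 and 0.353 CPM). Whether these reads come from the host transcript, its precursor or the mature microRNA was not tested. The hairpin row made up 4.75% and 4.80% of the MIR210HG count in Ni_3D, and 5.48%, 9.68%, 7.37% and 2.91% in Control_3D, and the log2 fold change of 2.82 did not pass the test (SE 0.74, adjusted p = 0.0504). The mature sequence that the hairpin yields is shown with its seed, bases 2 to 8, which pairs with target messages, in capitals (RefSeq, GRCh38.p14, chr11:568112-568133, minus strand).
hsa-miR-210-3p: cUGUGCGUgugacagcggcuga

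The promoter window of MIR210HG, from 250 bases before to 50 bases from the annotated start, is shown because HIF binds the core ACGTG or GCGTG (RefSeq, GRCh38.p14, chr11:568408-568707, minus strand; capitals mark that core on either strand).
MIR210HG: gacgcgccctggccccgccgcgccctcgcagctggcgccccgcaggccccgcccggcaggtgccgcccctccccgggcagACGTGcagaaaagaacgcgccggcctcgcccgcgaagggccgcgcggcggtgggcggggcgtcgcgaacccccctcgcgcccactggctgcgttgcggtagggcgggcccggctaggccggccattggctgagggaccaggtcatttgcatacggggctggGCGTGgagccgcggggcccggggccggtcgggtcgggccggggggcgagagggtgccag
The window held 2 matches, ACGTG starting 170 bases and GCGTG starting 9 bases before the start. At least 1 match on either strand was present in 48.5% of the 35116 promoter windows of this length, so a match by itself is common.

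Of the 30 hypoxia-induced genes listed beside MIR210HG, which code for glycolytic enzymes, prolyl hydroxylases and other HIF targets, most were called up at 3 days. In Ni_3D against Control_3D 22 of 30 were called up and 0 down, with a median log2 fold change of 2.00, where the median of all genes was 0.03. PGK1, a glycolytic kinase, averaged 2527 ± 64.0 CPM in Ni_3D (SD, n = 2) and 532 ± 38.7 CPM in Control_3D (SD, n = 4), and PFKFB3, which drives glycolytic flux, averaged 489 ± 39.5 CPM and 70.4 ± 10.97 CPM in the same order. Without Ni_3D replicate 1 and Control_3D replicate 1 the count fell to 6 of 30, with a median of 1.79, and without Ni_3D replicate 2 it was 12. In Ni_6W against Control_6W 0 of 30 were called up, 1 (ADM, adrenomedullin) was called down, and the median was 0.39. In Ni_3D+14D against Ni_3D 7 of 30 were called down and 0 up, with a median of -1.55. That count was 0 without either Ni_3D+14D library, with medians of -1.50 and -1.56, 4 without Ni_3D replicate 1 and 2 without Ni_3D replicate 2.

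NEAT1 had its highest level at 6 weeks of nickel, in 1 of 2 libraries. It had 5759 and 1152 CPM in Ni_6W, against 580 and 371 CPM in Control_6W. The groups did not overlap, where 24.5% of all genes were higher in Ni_6W without overlap, and the 2 exposed libraries were far apart. The log2 fold change was 2.87 (SE 0.72, adjusted p = 0.056), a fold of 7.30 that missed the threshold. It was 3.58 without Ni_6W replicate 2 and 1.27 without Ni_6W replicate 1, each with a lone exposed library left. The adjusted p was 0.108 with no filter on low counts and 0.119 with only the compared groups fitted. It was 0.0485 with the replicate number as a block, and DESeq2 gave 0.000351. In bulk RNA a change in the level per cell and a change in the share of cells that express a gene cannot be told apart.

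In the other groups no difference of NEAT1 from its controls passed the test. Ni_6W+2W had 839 and 1340 CPM, above both Control_6W libraries as for 23.3% of all genes, with a log2 fold change of 1.20 (SE 0.68, adjusted p = 0.481). Clones ranged from 523 to 1139 CPM with a median of 648 CPM, and clone 1 was the highest. At 3 days the exposed libraries fell on both sides of the controls, with 1509 and 365 CPM in Ni_3D and 543, 596, 506 and 659 CPM in Control_3D. Its direction at 3 days rested on replicate 1 of Ni_3D: the log2 fold change was 0.72 (SE 0.57, adjusted p = 0.468) with it and -0.66 (adjusted p = 0.634) without it. Ni_3D+14D had 1131 and 719 CPM, above all 4 Control_3D libraries as for 11.2% of all genes (log2 fold change 0.69, SE 0.57, adjusted p = 0.979).

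MALAT1 varied less. It had 940 and 395 CPM in Ni_6W and 325 and 309 CPM in Control_6W, a log2 fold change of 1.08 (SE 0.40, adjusted p = 0.114). The higher library was again Ni_6W replicate 1, and without it the log2 fold change was 0.31 (adjusted p = 0.701), while without replicate 2 it was 1.55 (adjusted p = 0.0159). Ni_6W+2W had 255 and 407 CPM, on both sides of the Control_6W libraries, and the clones ranged from 278 to 519 CPM with a median of 349 CPM. At 3 days MALAT1 had 330 and 156 CPM in Ni_3D and 260, 270, 216 and 220 CPM in Control_3D, a log2 fold change of 0.02 with all libraries and of -0.59 (SE 0.42, adjusted p = 0.49) without replicate 1 of both groups. Ni_3D+14D had 240 and 194 CPM. By group mean the order was Ni_6W, Ni_clone, Ni_6W+2W, Control_6W, Ni_3D, Control_3D and Ni_3D+14D, and each group overlapped the next.

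NEAT1 and MALAT1 together took 0.631% and 0.166% of all counted reads in Ni_6W, and 0.0890% and 0.0637% in Control_6W. Per kilobase NEAT1 exceeded MALAT1 in every library. The ratio of their RPKM reached 14.3 and 6.80 in Ni_6W and 7.67 and 7.68 in Ni_6W+2W, against 4.16 and 2.80 in Control_6W, so both groups were above their controls. At the short exposure it was 11 and 8.65 in Ni_3D+14D, 10.7 and 5.45 in Ni_3D, and 4.87, 5.16, 5.46 and 6.98 in Control_3D, with Ni_3D replicate 2 among its controls. Clones overlapped the controls, at 3.23 to 6.68. FRMD8, the neighbour of NEAT1 on the chromosome, was not called in Ni_6W against Control_6W (log2 fold change -0.23, SE 0.23, adjusted p = 0.548).

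**Figure D3:**
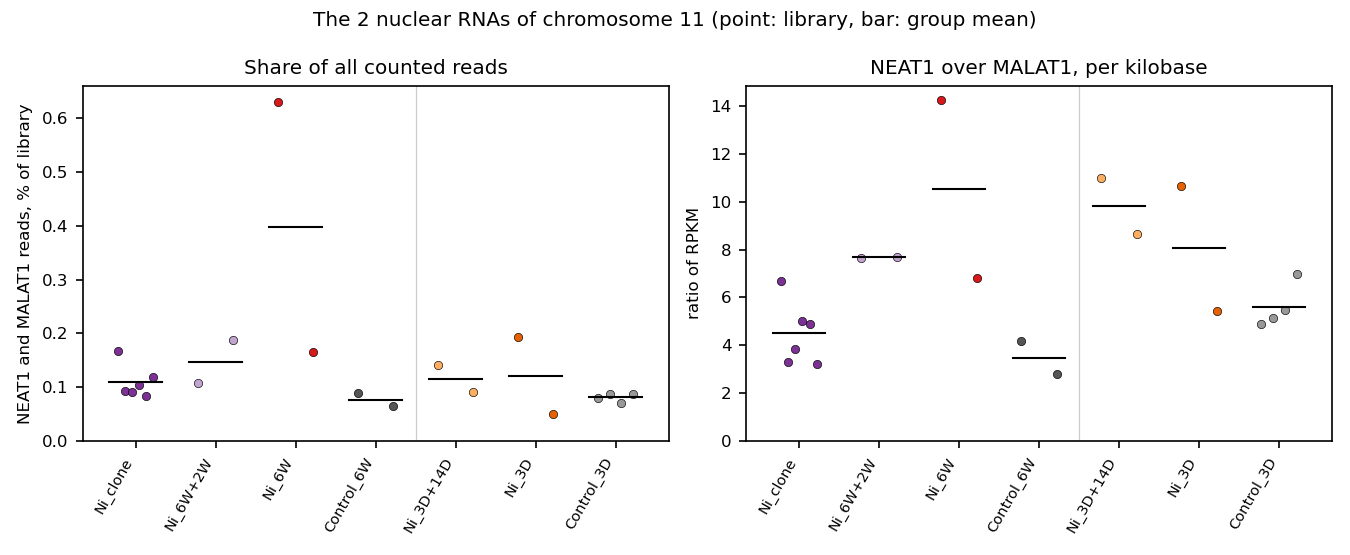
Left, reads of NEAT1 and MALAT1 as a percentage of all counted reads; right, the ratio of NEAT1 to MALAT1 in the authors' RPKM; points are libraries and bars group means. Ni_6W replicate 1 stands at 0.631% and at a ratio of 14.3, and the 2 Control_6W libraries at 0.0890% and 0.0637% with ratios of 4.16 and 2.80.

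The proteins that build or fill these nuclear bodies were taken as lists. Of all genes 2.47% were called in Ni_6W against Control_6W. Of 22 paraspeckle proteins 0 were called up and 2 down in Ni_6W against Control_6W, with a median log2 fold change of -0.37, where the median of all genes was 0.03. Among the called was SFPQ, an RNA-binding protein of paraspeckles, which averaged 155 ± 87.5 CPM in Ni_6W and 613 ± 226 CPM in Control_6W (SD, n = 2 each). Of 24 nuclear speckle and SR proteins 1 was called up, the splicing kinase CLK1 (log2 fold change 1.94, SE 0.37), and 2 down, the splicing factors SRSF2 (-1.14, SE 0.25) and SRSF6 (-1.32, SE 0.31). Of 9 measured genes listed for processing and stability of MALAT1 2 were called down, POP1 (-1.13, SE 0.27) and TRMT10C (-1.40, SE 0.34), and 0 up. TRMT10C codes for a mitochondrial protein, so its call is not one of a MALAT1 factor. All these calls had an adjusted p of 0.0497, and no gene was called in Ni_6W without Ni_6W replicate 1 or without Control_6W replicate 2.

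In the clones, where 5.26% of all genes were called, the paraspeckle list had 1 call, the transcription factor RUNX3 (up, log2 fold change 0.96, SE 0.13). The speckle list had 2, RNPS1 (-0.53, SE 0.12) and SRSF7 (-0.74, SE 0.19), both down. METTL16, which binds the MALAT1 triple helix, averaged 50.8 ± 5.94 CPM in Ni_clone (SD, n = 6) and 89.8 ± 0.463 CPM in Control_6W (SD, n = 2), a called fall of 0.80 on the log2 scale.

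GAS5 was raised at 3 days of nickel. It had 50.5 and 83.4 CPM in Ni_3D, against 32.0, 23.6, 30.2 and 34.0 CPM in Control_3D. The groups did not overlap, and 19.8% of all genes were higher in Ni_3D without overlap. The log2 fold change was 1.18 (SE 0.30, adjusted p = 0.0437), a fold of 2.26. The call rested on all 6 libraries, since leaving out any 1 of them gave an adjusted p of 0.0575 to 0.299 with log2 fold changes of 0.75 to 1.48. The lowest of these was without Ni_3D replicate 2 and the highest without Ni_3D replicate 1. Without both libraries that held oestrogen-responsive transcripts it was 1.51 (adjusted p = 0.092).

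In the other groups no difference of GAS5 passed the test. It had 41.7 and 40.4 CPM in Ni_3D+14D, below both Ni_3D libraries and above all Control_3D libraries. Of all genes 26.9% and 11.2% did so, each counted alone. The log2 fold change of GAS5 was -0.72 against Ni_3D (SE 0.35, adjusted p = 0.425) and 0.46 against Control_3D (SE 0.30, adjusted p = 0.979). At 6 weeks it had 94.95 and 39.8 CPM in Ni_6W and 32.1 and 37.2 CPM in Control_6W, with a log2 fold change of 0.97 (SE 0.36, adjusted p = 0.115). As for NEAT1 and MALAT1, replicate 1 was the high one: without replicate 2 the log2 fold change was 1.44 (adjusted p = 0.0102), and without replicate 1 it was 0.19 (adjusted p = 0.789). Ni_6W+2W had 43.9 and 33.9 CPM. The clones ranged from 23.1 to 29.9 CPM with a median of 25.9 CPM, all below both Control_6W libraries (as for 12.1% of all genes). Their log2 fold change was -0.38 (SE 0.14, adjusted p = 0.125).

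The snoRNAs that GAS5 carries in its introns had lower values at 6 weeks, where the GAS5 row had higher ones, with no row past the test. Inside GAS5 lie 10 box C/D snoRNA rows, and their reads summed to 41 to 695 per library. In Ni_6W they summed to 1.97 and 3.62 CPM, against 7.49 and 8.99 CPM in Control_6W. As a percentage of the GAS5 count they came to 2.08% and 9.11% for Ni_6W and to 9.99% and 9.16% for Ni_6W+2W, against 23.3% and 24.2% for Control_6W. The clones stood at 17.5% to 28.9%, around the controls. In the short exposure they were 6.62% and 11.6% in Ni_3D+14D, and 17.1%, 32.6%, 16.9% and 15.2% in Control_3D. Both Ni_3D libraries disagreed, with 27.4% in replicate 1 and 3.11% in replicate 2. No snoRNA row of GAS5 was called by edgeR: 6 of 10 passed the filter on low counts, and their log2 fold changes in Ni_6W against Control_6W ran from -2.51 to -1.14 (adjusted p = 0.131 to 0.406). Rows inside other hosts were lower there too: the 8 of SNHG1 summed to 8.29 and 7.34 CPM in Ni_6W, against 13.7 and 16.8 CPM in Control_6W (log2 fold changes -1.54 to -0.10), and the 4 of SNHG12 had log2 fold changes of -1.50 to -0.38. None of these was called by edgeR, and the hosts SNHG1 and SNHG12 stood at -0.09 and -0.05. SNORD80 had the most reads (813 over the 20 libraries) and SNORD75 the fewest (50). Mature snoRNAs are shorter than the fragments most RNA kits keep, the sources used here do not give the selection of RNA, and the part of either in these rows was not tested.

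**Figure D4:**
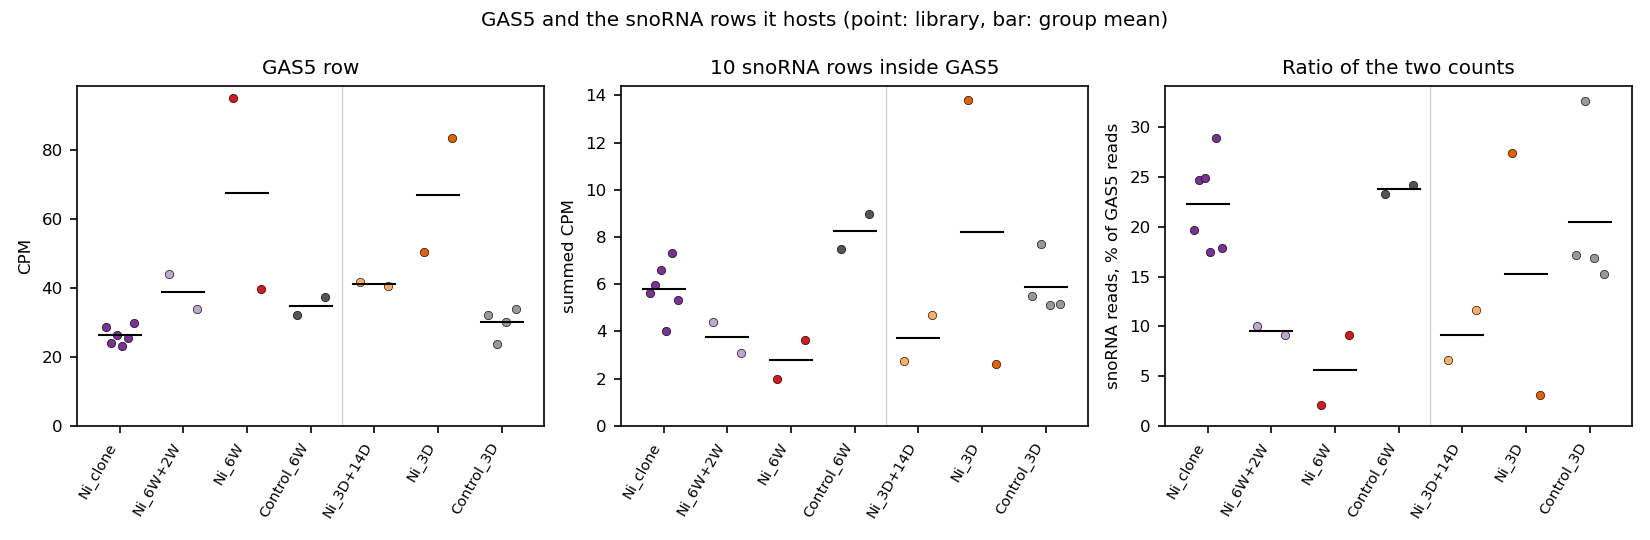
Left, CPM of the GAS5 row; centre, summed CPM of the 10 snoRNA rows inside GAS5; right, snoRNA reads as a percentage of GAS5 reads; points are libraries and bars group means. The percentage was 2.08% and 9.11% in Ni_6W and 9.99% and 9.16% in Ni_6W+2W, below 23.3% and 24.2% in Control_6W, and the Ni_clone libraries lay at 17.5% to 28.9%.

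SNHG1, SNHG8 and SNHG12 were lower in the clones than in Control_6W. SNHG1, the host of 8 box C/D snoRNAs, ranged from 42.9 to 65.1 CPM in Ni_clone with a median of 52.4 CPM, against 97.3 and 115 CPM in Control_6W. No clone reached the level of either control, and the log2 fold change was -0.98 (SE 0.15, adjusted p = 0.0146). SNHG12, which carries 3 box H/ACA snoRNAs and 1 box C/D snoRNA, ranged from 9.48 to 12.9 CPM in Ni_clone with a median of 10.3 CPM, against 20.3 and 19.5 CPM in Control_6W, with a log2 fold change of -0.86 (SE 0.17, adjusted p = 0.0251). SNHG8, the host of SNORA24, ranged from 2.79 to 5.70 CPM in Ni_clone with a median of 5.01 CPM, against 10.1 and 12.1 CPM in Control_6W, with a log2 fold change of -1.25 (SE 0.27, adjusted p = 0.0306). In all 3 the 6 clones lay below both controls, as they did for 12.1% of all genes.

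These calls depended on the 2 controls and on single clones. Without Control_6W replicate 2 none passed, with adjusted p of 0.137 for SNHG1, 0.167 for SNHG12 and 0.242 for SNHG8, and log2 fold changes of -0.87, -0.90 and -1.14. SNHG1 passed without any 1 other library. SNHG12 also missed without clone 2 (adjusted p = 0.0576), and SNHG8 without clone 2, 3 or 4 (0.0678, 0.0579 and 0.0562). With all 20 libraries in 1 fit SNHG1 passed (adjusted p = 0.0227), and SNHG12 (0.103) and SNHG8 (0.0619) did not. Control_6W lay above all 4 Control_3D libraries for SNHG1 and SNHG12, as for 8.88% of all genes. The log2 fold changes between these controls were 0.49 for SNHG1, 0.25 for SNHG12 and 0.36 for SNHG8, none called. For SNHG1 the clones overlapped Control_3D (62.6 to 86.0 CPM). For SNHG12 and SNHG8 they lay below Control_3D (14.4 to 19.04 and 6.37 to 11.8 CPM).

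SNHG5, the host of SNORD50A and SNORD50B, ranged from 6.01 to 8.63 CPM in Ni_clone with a median of 6.78 CPM, against 10.1 and 12.4 CPM in Control_6W. The clones again lay below both controls, as for 12.1% of all genes, and the difference missed the threshold (log2 fold change -0.66, SE 0.21, adjusted p = 0.087). At 3 days it pointed the other way, with 13.3 and 18.1 CPM in Ni_3D and 10.8, 6.96, 8.62 and 8.35 CPM in Control_3D (0.87, SE 0.28, adjusted p = 0.0887), and DESeq2 called that difference (adjusted p = 0.0392). Without replicate 1 of both groups it was 1.18 (SE 0.37, adjusted p = 0.145). In Ni_3D+14D it had 6.57 and 7.78 CPM, below both Ni_3D libraries as for 26.9% of all genes (-1.14, SE 0.34, adjusted p = 0.193).

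The other groups held no called change of these hosts. In Ni_6W they were scattered by replicate: SNHG12 had 28.3 and 9.72 CPM in Ni_6W, on both sides of the controls, SNHG8 had 13.8 and 4.33 CPM, and SNHG1 had 127 and 71.5 CPM, replicate 1 first each time. Ni_6W+2W lay below both Control_6W libraries, as for 20.8% of all genes, for SNHG1 (89.7 and 63.2 CPM), SNHG5 (9.92 and 6.197 CPM), SNHG8 (6.60 and 2.82 CPM) and SNHG12 (15.1 and 6.59 CPM), with log2 fold changes of -0.47, -0.48, -1.22 and -0.86. Clones and Ni_6W+2W share that control group. Set directly against Ni_6W+2W, the clones differed by -0.53 for SNHG1 (SE 0.17, adjusted p = 0.706), -0.20 for SNHG5 (SE 0.24), -0.05 for SNHG8 (SE 0.36) and -0.02 for SNHG12 (SE 0.28). The values near 0 lay between unlike libraries: without Ni_6W+2W replicate 1 they were 0.17 for SNHG5, 0.68 for SNHG8 and 0.70 for SNHG12, and without replicate 2 they were -0.50, -0.53 and -0.49. At 3 days SNHG1 had 75.7 and 73.9 CPM in Ni_3D and 62.6 to 86.0 CPM in Control_3D (log2 fold change 0.02, SE 0.23). In the same order SNHG8 had 7.57 and 8.54 CPM and 6.37 to 11.8 CPM, and SNHG12 had 15.0 and 23.6 CPM and 14.4 to 19.04 CPM. SNHG8 (4.34 and 6.315 CPM) and SNHG12 (11.4 and 12.8 CPM) in Ni_3D+14D lay below every Control_3D library, as for 10.8% of all genes. SNHG1 (60.7 and 64.8 CPM) overlapped Control_3D there. Set against Control_3D, Ni_3D+14D differed by -0.67 for SNHG8 (SE 0.46), -0.46 for SNHG12 (SE 0.40) and -0.25 for SNHG1 (SE 0.23). Each of these hosts was also below both Ni_3D libraries, as for 26.9% of all genes.

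The snoRNA rows inside SNHG1 moved in the direction of their host in the clones. They summed to 5.46 to 7.65 CPM in Ni_clone, against 13.7 and 16.8 CPM in Control_6W. Of the 8 rows 2 were called, SNORD25 (log2 fold change -1.36, SE 0.33, adjusted p = 0.0452) and SNORD31 (-1.70, SE 0.40, adjusted p = 0.0409), and all 8 were negative, from -1.71 to -0.86. As a share of the SNHG1 count they made up 9.02% to 15.98% in the clones and 14.0% and 14.6% in the controls, which overlapped. The 4 snoRNA rows of SNHG12 had log2 fold changes of -1.39 to -0.76, and 0 were called. The rows inside SNHG5 and SNHG8 had at most 21 and 7 reads per library, too few to describe a direction.

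The promoter windows of the 3 hosts called in the clones and of SNHG5 are shown for comparison (RefSeq, GRCh38.p14). SnoRNA hosts belong to a class of genes whose transcripts often start with C followed by a run of pyrimidines, as ribosomal protein messages do. In capitals are the first 10 transcribed bases from the annotated start and, where present, TATAA between 40 and 16 bases before it on the coding strand. The windows are chr11:62855836-62856135 (minus strand) for SNHG1, chr1:28581824-28582123 (minus) for SNHG12, chr4:118278512-118278811 (plus) for SNHG8 and chr6:85678684-85678983 (minus) for SNHG5.
SNHG1: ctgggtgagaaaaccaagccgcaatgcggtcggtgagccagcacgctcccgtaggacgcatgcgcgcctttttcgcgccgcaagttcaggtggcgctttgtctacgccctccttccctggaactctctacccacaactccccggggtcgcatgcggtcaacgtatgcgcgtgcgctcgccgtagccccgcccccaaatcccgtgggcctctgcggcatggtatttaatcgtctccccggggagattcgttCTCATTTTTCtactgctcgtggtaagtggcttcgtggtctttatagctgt
SNHG12: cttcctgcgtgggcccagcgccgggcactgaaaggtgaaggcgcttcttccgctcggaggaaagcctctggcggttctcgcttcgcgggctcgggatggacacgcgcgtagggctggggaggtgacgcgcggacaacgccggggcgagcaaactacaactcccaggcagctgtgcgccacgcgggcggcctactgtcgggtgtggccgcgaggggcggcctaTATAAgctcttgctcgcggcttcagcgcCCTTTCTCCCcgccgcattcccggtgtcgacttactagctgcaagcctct
SNHG8: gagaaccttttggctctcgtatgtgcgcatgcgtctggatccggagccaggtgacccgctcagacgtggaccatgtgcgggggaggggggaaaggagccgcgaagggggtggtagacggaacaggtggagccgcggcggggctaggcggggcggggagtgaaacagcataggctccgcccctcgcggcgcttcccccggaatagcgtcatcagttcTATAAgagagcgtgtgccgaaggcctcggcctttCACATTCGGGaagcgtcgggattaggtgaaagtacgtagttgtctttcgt
SNHG5: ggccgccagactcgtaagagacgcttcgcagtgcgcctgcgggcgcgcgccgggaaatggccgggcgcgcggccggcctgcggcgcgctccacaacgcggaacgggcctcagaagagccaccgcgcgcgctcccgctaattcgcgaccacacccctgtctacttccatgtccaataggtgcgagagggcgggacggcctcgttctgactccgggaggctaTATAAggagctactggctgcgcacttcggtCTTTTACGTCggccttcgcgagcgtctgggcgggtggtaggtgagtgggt
A start with C and only C or T in the first 5 bases was present in SNHG12, whose run is 11 bases long, and in SNHG5, with 5 bases, and in 4.07% of all 35116 windows. SNHG1 had a run of 3 bases and SNHG8 of 1 base at these annotated starts. The window of GAS5, called in Ni_3D, is not shown because it may start elsewhere than the counted row. It had a run of 0 bases, 0 TATAA in the stated place and 0 hypoxia cores. SNHG12, SNHG8 and SNHG5 had TATAA in the stated place, a motif chosen after the sequences were seen, which 3.91% of all windows held, and SNHG1 had none there. The hypoxia core ACGTG or GCGTG occurred 2 times in the SNHG1 window, 3 times in SNHG12, 2 times in SNHG8 and 0 times in SNHG5.

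Taken with 14 further snoRNA and noncoding host genes, the clones showed 6 of 19 hosts called down and 0 up, with a median log2 fold change of -0.63, where the median of all genes was 0.01. Besides the 3 members these were SNHG3 (36.6 ± 7.06 CPM in Ni_clone and 72.1 ± 1.84 CPM in Control_6W, SD, n = 6 and 2), SNHG4 (4.29 ± 1.59 CPM and 11.5 ± 2.55 CPM in the same order) and SNHG16 (log2 fold change -0.67, SE 0.17, adjusted p = 0.0496). Of the 19 values 18 were negative, and the one above 0 was SNHG11 (0.49, SE 0.21, adjusted p = 0.186). The count was 0 without Control_6W replicate 2, 1 without clone 2, 3 without clone 3 or clone 4, 2 with all 20 libraries in 1 fit, and 10 with DESeq2. In Ni_3D against Control_3D 2 of 19 were called up and 0 down, GAS5 and ZFAS1 (95.5 ± 24.1 CPM in Ni_3D and 39.0 ± 8.10 CPM in Control_3D, SD, n = 2 and 4), with a median of 0.30. That count was 0 without Ni_3D replicate 1, Ni_3D replicate 2, or Control_3D replicate 2, 3 or 4, each left out alone, and 1 up and 1 down without Control_3D replicate 1. Without replicate 1 of both groups it was 0, with ZFAS1 at 1.67 (SE 0.38, adjusted p = 0.0779). In Ni_6W against Control_6W 2 of 19 were called down and 0 up, DANCR (-1.70, SE 0.36) and SNHG4 (-2.26, SE 0.49). After nickel most values were negative as well, with 0 called. They were 17 of 19 in Ni_6W+2W against Control_6W (median -0.47) and 16 of 19 in Ni_3D+14D against Control_3D (median -0.25). Between the unexposed groups, Control_6W against Control_3D, 16 of 19 values were positive and 0 were called, with a median of 0.25. Of all genes 2.38% were called down in Ni_clone, 2.83% called up in Ni_3D and 2.47% called in Ni_6W, each against its control.

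**Figure D5:**
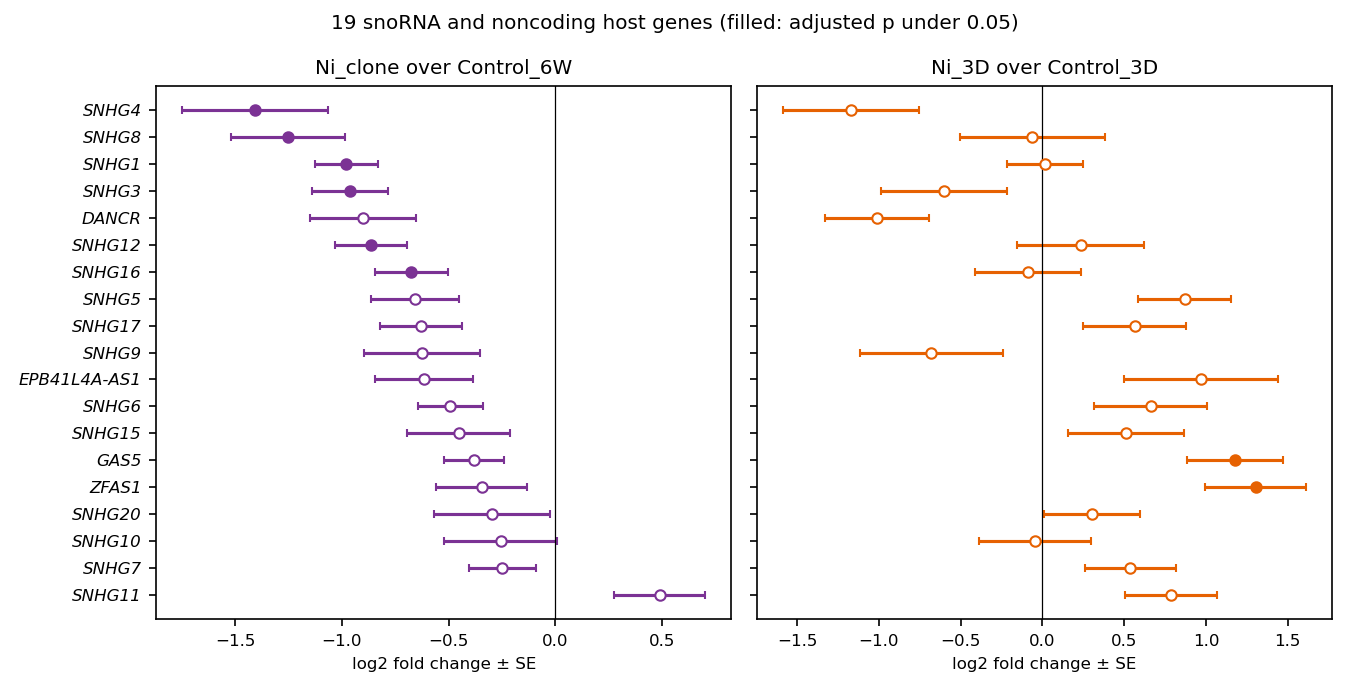
Log2 fold change with its standard error of 19 snoRNA and noncoding host genes, ordered by the value in Ni_clone over Control_6W (left) and repeated for Ni_3D over Control_3D (right); filled points passed an adjusted p of 0.05. On the left 18 of 19 lie below 0 and 6 are filled; on the right 2 are filled, GAS5 and ZFAS1.

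Some protein partners of snoRNAs were lower in the clones than in Control_6W. Of all genes 2.38% were called down in that comparison, and the median log2 fold change of all genes was 0.01. Of 16 measured box C/D and H/ACA proteins 3 were called down and 0 up, with a median log2 fold change of -0.41: NOP56, a core box C/D protein (199 ± 23.4 CPM in Ni_clone and 382 ± 69.1 CPM in Control_6W, SD, n = 6 and 2), DKC1, the pseudouridine synthase dyskerin (110 ± 14.6 CPM and 219 ± 88.0 CPM in the same order), and NHP2L1, which binds the snoRNA kink-turn (139 ± 22.4 CPM and 223 ± 6.91 CPM). In Ni_6W against Control_6W 1 was called down, the assembly factor SHQ1 (-1.03, SE 0.23), and 0 up. In the clones 14 of 16 values were negative, as in each of the other nickel groups against its control. The medians there were -0.64 in Ni_6W, -0.39 in Ni_6W+2W, -0.28 in Ni_3D and -0.24 in Ni_3D+14D. Of 80 cytosolic ribosomal protein genes tested, a list added after the members' values were seen, 7 were called down and 1 up in the clones, with a median of -0.38 and 74 of 80 values negative. RPL26 averaged 181 ± 15.4 CPM in the clones and 367 ± 34.5 CPM in Control_6W. Without Control_6W replicate 2 only 6 genes of all those tested were called, against 746 with it.

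Of 18 nonsense-mediated decay factors 2 were called down in the clones, the decapping enzyme DCP2 (-0.71, SE 0.16) and RNPS1 (-0.53, SE 0.12), and 0 up, with a median of -0.18. The median of all genes there was 0.01. Of all genes 5.26% were called in Ni_clone, 4.33% in Ni_3D and 2.47% in Ni_6W, each against its control, so 1 call is no result about a list. In Ni_3D against Control_3D 1 was called up and 0 down: SMG1, the kinase that acts on UPF1 in this decay, averaged 272 ± 24.4 CPM in Ni_3D (SD, n = 2) and 156 ± 22.6 CPM in Control_3D (SD, n = 4). Without replicate 1 of both groups neither SMG1 (0.68, SE 0.26, adjusted p = 0.211) nor PVT1 (1.54, SE 0.36, adjusted p = 0.0813) passed. Of the other long noncoding RNAs listed, PVT1 was the 1 of 30 called in Ni_3D (up, 15.2 ± 3.16 CPM and 6.59 ± 1.21 CPM in the same order), MIR22HG the 1 of 30 called in Ni_6W (down, log2 fold change -2.51, SE 0.46), and MIR22HG (down, -1.32, SE 0.20) and LINC00657 (NORAD, which binds Pumilio proteins; up, 0.59, SE 0.13) the 2 of 28 called in the clones.

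Across the clones the members differed in how much they spread. The SD of log2 CPM over the 6 clones was 0.69 for MIR210HG, 0.42 for NEAT1 and 0.39 for SNHG8, and 0.14 for GAS5, where the median over all tested genes was 0.25. MALAT1 (0.31) was above that median, and SNHG5 (0.21), SNHG1 (0.20) and SNHG12 (0.18) were below it. The lowest and highest clone were 3.77 times apart for MIR210HG and 1.29 times apart for GAS5.

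Over the 20 libraries some members varied together, which is a description only, since libraries of a group share their treatment. The closest pair was SNHG8 and SNHG12 (Pearson's r of log2 CPM 0.90 over 20 libraries and 0.92 over the 14 that are not clones). MALAT1 and NEAT1 had 0.72 and 0.83, and MIR210HG and SNHG8 had -0.50 and -0.54. Among the 10886 named genes whose mean reached 5 CPM, those most like MIR210HG were ZNF395 (0.96), EGLN3, a HIF prolyl hydroxylase (0.91), and APLN, the ligand apelin (0.91). For GAS5 they were CCDC174 (0.95), KIAA1191 (0.91) and PPIE (0.91), for NEAT1 EZH1, a Polycomb methyltransferase (0.92), LETMD1 (0.91) and LMBR1L (0.90), and for MALAT1 SPICE1 (0.87), MIA3 (0.85) and BCL6 (0.83). For SNHG12 they were the ribosomal protein genes RPL36 (0.90) and RPL28 (0.90) beside SNHG8. For SNHG8 they were FBL, the box C/D methyltransferase fibrillarin (0.91), SNHG12 (0.90) and LRRC75A-AS1 (0.90). For SNHG1 they were NR2C2AP (0.89), RPS25 (0.88) and CCNB1IP1 (0.88), and for SNHG5 MPP3 (0.86), TNFRSF10D (0.84) and CLCN2 (0.84).

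For Ni_3D the authors' deposited table of log2 ratios, nickel over control, listed MIR210HG at 1.48 (adjusted p = 0.0202), GAS5 at 0.98 (0.00399) and SNHG5 at 0.81 (0.0261). For Ni_3D+14D the authors' deposited table listed SNHG8 at -0.73 (0.0245), NEAT1 at 0.47 (0.232) and MIR210HG at 0.45 (0.263). For Ni_6W the authors' deposited table listed NEAT1 at 2.24, MIR210HG at 1.79, MALAT1 at 0.92 and GAS5 at 0.81. For Ni_6W+2W the authors' deposited table listed MIR210HG at 1.19, NEAT1 at 0.99 and SNHG8 at -0.87. The p column of the 6-week tables is not used here.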

How the data were processed

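All comparisons rest on read counts per RefSeq gene that the authors deposited for each library beside their RPKM values (reads scaled to gene length and library size). The authors also deposited tables of log2 ratios with p-value columns. In the submitters' processing notes the tools STAR 2.4, DESeq2 and DESeq are listed, with hg19 (GRCh37). The counter, the strand and the selection of RNA are not stated there. Libraries were joined by RefSeq identifier, since 28 symbols were altered in 2 of them. A joint fit held the 14 libraries other than clones, and the clones were fitted with 1 other group, in edgeR 4.0.16 (R 4.3.3): TMM factors, filterByExpr (count minimum 10, total minimum 15), the robust quasi-likelihood test, and Benjamini-Hochberg adjustment over all genes tested, called under 0.05. The biological coefficient of variation was 29.7% in the joint fit. A standard error is the log2 fold change over the root of F. CPM used TMM-scaled totals, and log2 CPM a prior count of 0.5. The test was tried on simulated data. Alternatives were RLE size factors, DESeq2 1.42.0, no filter, other sets of libraries, each library left out, and the replicate number as a block. The members and gene lists were chosen with earlier results of these data known, and the ribosomal protein list and the TATAA motif after values and sequences were seen. Named were all members, the rows inside them, overlapping and neighbouring genes, up to 4 called genes of each list by adjusted p, and the 3 genes most correlated with each member. SNHG4 and SNHG16 in the clones and SNHG11 fall outside that rule and were chosen after their values were seen. Some genes that this rule selects are not reported here.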

Additional observations from a re-analysis of the deposited data

Results flagged for a closer look

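NEAT1 in clone 1 (1139 CPM) stood apart from the other clones, which lay between 523 and 719 CPM. MIR210HG in clone 6 (34.3 CPM) stood apart from the other clones, which lay between 9.10 and 14.3 CPM. The values of each member were examined within each group of 4 or 6 libraries for a lone high or low library. Of 16 such sets 2 gave one. Chance gives about 1 in 20 sets, but the sets share libraries and are not independent.

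The values of SNHG5 pointed different ways in the long and the short exposure while nickel was present, and neither difference passed the test (-0.35, SE 0.34, adjusted p = 0.542 for Ni_6W against Control_6W; 0.87, SE 0.28, adjusted p = 0.0887 for Ni_3D against Control_3D). Both Ni_6W libraries (10.75 and 6.80 CPM) were below the mean of Control_6W (11.3 CPM), with the higher of them above Control_6W replicate 1 (10.1 CPM), and both Ni_3D libraries (13.3 and 18.1 CPM) were above the mean of Control_3D (8.67 CPM). The difference between the responses was -1.22 on the log2 scale (SE 0.45, unadjusted p = 0.0173, adjusted p = 0.363 by edgeR's interaction term) and did not pass.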

How the results depend on the processing

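No called change of a member reversed its direction under any alternative. Of 1128 log2 fold changes of members under the alternatives, 1085 stayed on their side of the threshold, 29 lost a call and 14 gained one, and 69 values that were never called changed sign. The group mean moved by more than its SD for 2 of 112 values, over plain library totals: MALAT1 in Control_6W (304.3 CPM) and SNHG12 in Control_6W (19.1 CPM). The causes of the shifts below were not tested.

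With DESeq2, 1889 genes (3 members) were called for Ni_3D against Control_3D, 16 for Ni_3D+14D against Control_3D, and 448 (1 member) for Ni_3D+14D against Ni_3D. It called 2098 (2 members) for Ni_6W against Control_6W, 323 for Ni_6W+2W against Control_6W, and 7 for Ni_6W+2W against Ni_6W. For Control_6W against Control_3D it called 48, for Ni_clone against Control_6W 2002 (5 members), and for Ni_clone against Ni_6W+2W 64. For the differences between long and short exposure in and after nickel it called 197 and 2. With no filter, 1 member was called for Ni_3D, and 59 genes for Ni_3D+14D against Ni_3D, 1 between the controls, 7 for Ni_clone against Ni_6W+2W and 10 for the difference in nickel. With only the compared groups fitted, 243 genes were called for Ni_3D+14D against Ni_3D, 111 for Ni_6W, 39 for Ni_6W+2W against Control_6W and 1 between the controls. With all 20 libraries in 1 fit, 464 genes and 1 member were called for Ni_clone against Control_6W, and 0 genes against Ni_6W+2W.

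Replicate numbers are shared between groups, but nothing in the labels pairs them, and same-numbered libraries deviated together with correlations of -0.0908 to 0.385. With the replicate block, 92 genes and 0 members were called for Ni_3D, 761 genes and 1 member (NEAT1, adjusted p = 0.0485) for Ni_6W, 128 genes for Ni_6W+2W against Control_6W, 281 between the controls, 149 genes and 0 members for Ni_clone against Control_6W, 2 genes against Ni_6W+2W, and 70 and 28 for the differences in and after nickel.

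Leaving out replicate 1 of both Ni_3D and Control_3D gave 75 genes and 0 members for Ni_3D, 16 genes for Ni_3D+14D against Ni_3D and 1 for the difference in nickel. Leaving out Control_3D replicates 1 and 2 gave 1174 genes and 1 member for Ni_3D and 112 genes for Ni_3D+14D. Leaving out Control_3D replicates 3 and 4 gave 121 genes and 0 members for Ni_3D, 301 between the controls, and 101 and 51 for the differences in and after nickel.

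With each library left out in turn, Ni_3D against Control_3D gave 0 to 1 members and 65 to 653 genes, Ni_3D+14D against Ni_3D 0 to 34 genes, Ni_6W against Control_6W 0 to 3 members and 0 to 2871 genes, Ni_6W+2W against Control_6W 0 to 117 genes, Ni_6W+2W against Ni_6W 0 to 3 members and 0 to 1150 genes, and the controls 0 to 134 genes. Ni_clone against Control_6W gave 0 to 4 members and 6 to 1504 genes, Ni_clone against Ni_6W+2W 2 to 6 genes, and the differences 0 to 302 genes in nickel and 0 to 8 after it. With 2 libraries in most groups, a left-out library leaves a lone one that is assumed to vary like the others.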
